A study of Mus musculus with 4 samples.

Results

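The transcripts of 9 mouse genes that write or erase epigenetic silencing marks were followed in splenic B cells. They encode the catalytic subunits of Polycomb repressive complex 2 (Ezh1 and Ezh2), the core partners of that complex (Eed and Suz12), the de novo DNA methyltransferases (Dnmt3a and Dnmt3b) and the TET dioxygenases (Tet1, Tet2 and Tet3). The genes were picked by name, and all 9 were found among the 41342 named genes of the count table. All 9 also had a mean of at least 50 counts per library, as did 11286 genes in all.

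The 4 libraries came from CD43-depleted spleen cells of 2 mutant mouse lines, ΔleftPAL and ΔIRIS, both homozygous and labelled as strain 129. ΔleftPAL mice lack the genomic stretch of the IgH 3' regulatory region that holds the enhancers hs3a and hs1,2 and the inverted repeats between them, called IRIS. ΔIRIS mice lack these repeats but keep the enhancers, with hs3a inverted, and both lines were derived from E14 embryonic stem cells with the selection cassette removed by Cre breeding. Resting libraries were made from freshly purified cells, and LPS libraries from cells cultured for 48 h in serum-containing RPMI medium and 5 μg per ml of the B-cell mitogen lipopolysaccharide (LPS). The mice were 8 to 12 weeks old, and each library held RNA of cells pooled from 4 animals according to the labels, while the study's methods describe the pooling differently. Each combination of genotype and condition had 1 library, so no group had a replicate, and wt libraries were not analysed here. Culture and LPS always went together, so they cannot be told apart.

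Polycomb repressive complex 2 (PRC2) places methyl groups on lysine 27 of histone H3, a mark of silenced genes. Its catalytic subunit is either EZH2, which is typical of dividing cells and is known for its high level in germinal-centre B cells, or EZH1, which is typical of resting cells, and both need EED and SUZ12 to be active. DNMT3A and DNMT3B methylate cytosine in unmethylated CpG sites, while DNMT1 copies methylation to the new strand after replication. TET1, TET2 and TET3 oxidise 5-methylcytosine, which starts its removal, and loss of TET2 or DNMT3A is known from blood cancers.

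The libraries held 23621743 to 29778717 fragments assigned to genes, so that 3 counts, used here as the limit of detection, corresponded to 0.101 to 0.127 counts per 1000000 counts (CPM). All 6 B-cell markers were abundant in the 4 libraries, with sums of 3855 and 3269 CPM at rest and 2303 and 2464 CPM after LPS in ΔleftPAL and ΔIRIS. Of these 6, 5 fell with LPS (median log2 change -0.66), and Ms4a1 was not called. Markers of other cells moved with the condition too. The 4 erythroid markers summed to 34177 and 23807 CPM in the resting ΔleftPAL and ΔIRIS libraries and to 50.7 and 107 CPM after LPS. The 5 myeloid markers summed to 302 and 414 CPM at rest and to 8.31 and 17.5 CPM after LPS, the 6 T-cell markers to 50.1 and 43.7 against 18.2 and 17.2 CPM, and the 3 NK-cell markers to 3.15 and 1.24 against 0.148 and 0.0682 CPM. After LPS, most of the T-cell sum and of the myeloid sum came from 1 gene each that was not called. Lck made up 18.1 and 17.2 CPM of the T-cell sum after LPS, from 30.8 and 18.5 CPM at rest, while Cd4 fell from 11.2 and 17.1 to 0.0742 and 0.0341 CPM. Itgam made up 5.20 and 15.4 CPM of the myeloid sum, from 13.1 and 10.5 CPM at rest and so higher after LPS in ΔIRIS, while Lyz2, Csf1r and Cd68 fell. The T-cell markers Cd3d, Cd3e and Cd3g, the myeloid marker Mpo and the NK-cell marker Ncr1 had no count after LPS. Of the 4 plasma-cell markers, Prdm1 and Xbp1 rose and Sdc1 and Irf4 were not called, with sums of 364 and 693 CPM at rest and 942 and 709 CPM after LPS. The part of these cells in the changes below was not tested, and fewer cells of a type and less RNA per cell cannot be told apart in such bulk samples.

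With LPS, the PRC2 genes separated. Ezh2, Suz12 and Eed rose, while Ezh1, Dnmt3a, Tet1, Tet2 and Tet3 fell, and Dnmt3b was not called. These calls came from a fit across all genes (edgeR quasi-likelihood test, two-sided, Benjamini-Hochberg adjusted p under 0.05). In it the genotypes stood in for the missing replicates. Its p-values weigh a change against the disagreement of the 2 genotypes and against the spread of that disagreement over all genes. With 1 residual degree of freedom, a p-value thus does not measure how well the genotypes agreed for that gene alone. By the same rule 36.4% of the 11286 genes rose and 27.9% fell, with a median log2 change of 0.12, so that a call by itself was common. With DESeq2 size factors 3598 genes were higher and 3642 lower, and the median was -0.02. The median of the 9 genes was -0.40. All 9 moved in the same direction in both genotypes, and the CPM values of resting and LPS libraries did not overlap for any of them, as was the case for 83.6% of all genes tested.

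**Figure D1:**
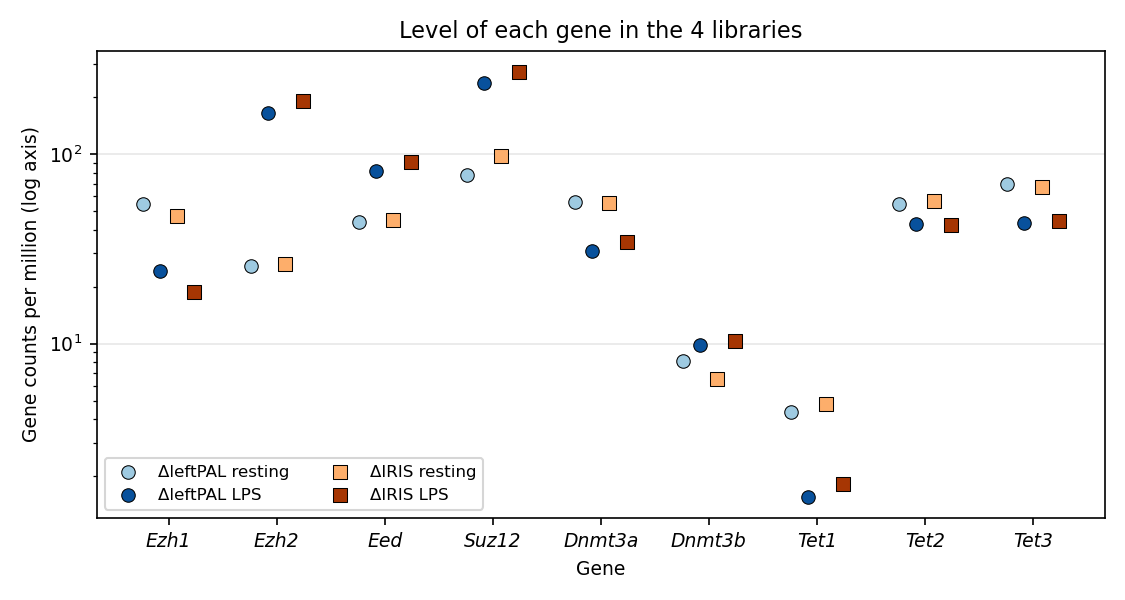
CPM (log axis) of the 9 genes in each of the 4 libraries, circles for ΔleftPAL and squares for ΔIRIS, pale for resting and dark for LPS. Ezh2 went from 25.8 and 26.2 CPM to 164 and 192 CPM, while Ezh1 went from 54.4 and 47.1 CPM to 24.3 and 18.8 CPM.

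Ezh2, the PRC2 methyltransferase of dividing cells (chr6:47530274-47595341, reverse strand, mm10), was counted 630 times in resting ΔleftPAL cells and 4422 times after LPS, which is 25.8 and 164 CPM. In ΔIRIS cells it was counted 762 and 5625 times, or 26.2 and 192 CPM. The resting libraries lay close together, and both LPS libraries stood far above them. Ezh2 rose 6.83-fold in the common fit (log2 change 2.77 ± 0.14 (SE), edgeR adjusted p = 0.00017), and 292 of the 11286 genes (2.59%) had a larger log2 change. The log2 ratio of LPS to resting was 2.67 in ΔleftPAL (95% interval 2.55 to 2.79) and 2.87 in ΔIRIS (2.76 to 2.98). These intervals, here and below, are exact Clopper-Pearson intervals of the share of reads, which cover counting error only.

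Ezh1, which encodes the alternative catalytic subunit (chr11:101191115-101226463, reverse strand), moved the other way. It had 1329 counts in resting ΔleftPAL cells and 655 after LPS (54.4 and 24.3 CPM), and 1370 and 552 counts in ΔIRIS cells (47.1 and 18.8 CPM). Both LPS libraries lay below both resting ones. Ezh1 fell 2.37-fold in the common fit (log2 change -1.24 ± 0.13 (SE), edgeR adjusted p = 0.00089), with log2 ratios of -1.16 (-1.30 to -1.03) in ΔleftPAL and -1.32 (-1.47 to -1.18) in ΔIRIS.

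Since the genes differ in length, the 2 catalytic subunits were compared with each other in TPM, the level of a transcript per length that kallisto gives. Summed over all transcripts, Ezh2 stood at 29.1 and 27.7 TPM at rest and 92.7 and 106 TPM after LPS in ΔleftPAL and ΔIRIS, and Ezh1 at 26.0 and 22.9 TPM at rest and 10.0 and 7.85 TPM after LPS. The ratio of Ezh2 to Ezh1 was thus 1.12 and 1.21 in the resting libraries and 9.24 and 13.5 in the LPS libraries. Which of them was higher at rest depended on the measure. With complete coding transcripts only, an alternative added after the data were seen, the ratio was 0.592 and 0.710 at rest and 10.5 and 15.7 after LPS, and gene counts per kilobase gave 0.569 and 0.668 at rest and 8.11 and 12.2 after LPS. After LPS, Ezh2 was the higher of the pair by each of these measures.

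The transcript make-up of Ezh2 also differed between resting and LPS libraries. Of its 12 annotated transcripts, 4 are complete coding ones. These held 61.0% and 64.9% of the estimated counts of Ezh2 in the resting ΔleftPAL and ΔIRIS libraries, and 89.1% and 88.1% in the LPS libraries. Per length, their share of the TPM of Ezh2 was 33.5% and 35.6% at rest and 72.4% and 70.6% after LPS. The highest of the other transcripts at rest was a processed one of 837 bases without coding sequence. It stood at 8.76 and 9.40 TPM at rest and at 2.73 and 3.45 TPM after LPS in ΔleftPAL and ΔIRIS. Retained-intron transcripts were also among the others, and the part of unspliced RNA in these shares was not tested. The transcript with the longest coding sequence (2238 bases) went from 281 to 3335 estimated counts in ΔleftPAL and from 468 to 3911 in ΔIRIS. The log2 ratio of LPS to resting over complete coding transcripts was 3.16 and 3.33, against 2.67 and 2.87 for gene counts. The complete coding share of TPM rose with LPS in other genes too. It went from 64.4% to 86.1% in ΔleftPAL and from 76.6% to 84.8% in ΔIRIS for Suz12. For Dnmt3b it went from 53.2% to 82.2% and from 73.6% to 84.6%, and it also rose in both genotypes for Eed and Tet3. For Dnmt3a it went from 47.2% to 49.0% in ΔleftPAL and from 47.1% to 53.6% in ΔIRIS. The direction for Dnmt3a depended on the measure, since the share of estimated counts went from 86.6% to 85.0% and from 85.7% to 88.5%. For Ezh1, complete coding transcripts made up 92.5% to 94.8% of the estimated counts and 60.6% to 63.6% of the TPM in each library. Its 2 longest coding forms, of 2241 and 2250 bases, differ little in sequence length and start, and the estimates swung between them, from 950 and 198 in resting ΔleftPAL to 9.10 and 576 after LPS and from 557 and 640 to 262 and 211 in ΔIRIS, so that no isoform change of Ezh1 is read from them.

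Suz12 and Eed, the core partners without which neither catalytic subunit is active, rose with Ezh2, though less. Suz12 (chr11:79993106-80034123, forward strand) went from 1893 to 6366 counts in ΔleftPAL (77.5 to 236 CPM) and from 2829 to 7964 in ΔIRIS (97.3 to 272 CPM). It rose 2.92-fold in the common fit (log2 change 1.54 ± 0.13 (SE), edgeR adjusted p = 0.00044), with log2 ratios of 1.61 (1.53 to 1.68) in ΔleftPAL and 1.48 (1.42 to 1.54) in ΔIRIS. Eed (chr7:89954656-89980983, reverse strand) went from 1066 to 2185 counts in ΔleftPAL (43.6 to 81.1 CPM) and from 1313 to 2659 in ΔIRIS (45.2 to 90.7 CPM). It rose 1.93-fold (log2 change 0.95 ± 0.12 (SE), edgeR adjusted p = 0.0017), with log2 ratios of 0.89 (0.79 to 1.00) and 1.01 (0.91 to 1.10). The 3 risen PRC2 genes thus kept the order Ezh2, Suz12, Eed in both genotypes, and their intervals did not overlap within a genotype.

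The DNA before the start sites of the PRC2 genes was read from the RefSeq annotation of GRCm38.p6, the reference strain's sequence and not that of strain 129. It is shown because 3 of these genes rose together and the fourth fell. Each line gives the 250 bases before the annotated start, 5′ to 3′ on the strand of the gene, with capitals marking CCAAT, TTTCCCGC and TTTGGCGC or their reverse complements, words bound by NF-Y (CCAAT) and E2F factors (the other words); no marked words overlap.
Ezh2 (chr6:47595031-47595280, reverse strand): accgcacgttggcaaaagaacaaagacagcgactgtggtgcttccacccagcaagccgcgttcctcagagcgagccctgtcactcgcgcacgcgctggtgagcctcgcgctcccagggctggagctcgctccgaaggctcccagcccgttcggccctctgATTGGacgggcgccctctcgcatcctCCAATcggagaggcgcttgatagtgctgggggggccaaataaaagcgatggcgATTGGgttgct
Suz12 (chr11:79992856-79993105, forward strand): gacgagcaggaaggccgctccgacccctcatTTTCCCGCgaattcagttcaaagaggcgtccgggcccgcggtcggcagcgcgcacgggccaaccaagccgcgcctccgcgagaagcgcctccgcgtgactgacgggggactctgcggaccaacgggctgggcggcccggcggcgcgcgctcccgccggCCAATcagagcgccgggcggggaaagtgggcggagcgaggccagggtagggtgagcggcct
Eed (chr7:89980977-89981226, reverse strand): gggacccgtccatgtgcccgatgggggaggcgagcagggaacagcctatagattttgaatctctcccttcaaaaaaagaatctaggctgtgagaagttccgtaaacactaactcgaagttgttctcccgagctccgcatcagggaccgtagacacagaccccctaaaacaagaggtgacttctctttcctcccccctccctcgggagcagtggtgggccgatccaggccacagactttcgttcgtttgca
Ezh1 (chr11:101226464-101226713, reverse strand): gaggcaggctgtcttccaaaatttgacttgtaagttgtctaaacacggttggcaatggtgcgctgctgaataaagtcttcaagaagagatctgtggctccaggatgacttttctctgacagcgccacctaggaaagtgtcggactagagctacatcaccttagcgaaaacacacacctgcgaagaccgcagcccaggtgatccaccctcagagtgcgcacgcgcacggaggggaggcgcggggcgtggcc
The words were searched on both strands in windows of 300 bases, 250 before and 50 after the start, and all 9 genes had at least 1 such window. These windows did not cover every start. That of Tet1 lay at base 62887324, while its coding form with 92.1% to 100% of the complete coding estimates starts at base 62899118. That of Tet3 lay at base 83441678, and none lay at base 83456392, the start of its form of 5409 coding bases. CCAAT was found 3 times before the start of Ezh2, with the first letters 90, 64 and 11 bases before it, 1 time in Suz12, 61 bases before, and 1 time in Eed, at base 26 after the start. TTTCCCGC was found in Suz12, 219 bases before the start, and TTTGGCGC in Ezh2, at base 4 after the start. None of the 3 words was in the window of Ezh1. Among the other genes, CCAAT was found in Tet3, 31 bases before the start. Of all 32851 windows, 37.4% held CCAAT, 1.07% TTTCCCGC and 0.514% TTTGGCGC. The 250 bases before the start held 23 CpG sites in Ezh2, 37 in Suz12, 12 in Eed and 14 in Ezh1, against a median of 6 over all windows, and 51 in Tet2. A match of letters is a description of the sequence, and no binding was measured.

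The de novo DNA methyltransferases did not move together. Dnmt3a (chr12:3806007-3914443, forward strand) went from 1366 to 831 counts in ΔleftPAL (55.9 to 30.8 CPM) and from 1606 to 1013 in ΔIRIS (55.2 to 34.6 CPM). It fell 1.70-fold in the common fit (log2 change -0.77 ± 0.13 (SE), edgeR adjusted p = 0.0040), with log2 ratios of -0.86 (-0.98 to -0.73) in ΔleftPAL and -0.68 (-0.79 to -0.56) in ΔIRIS. Dnmt3b (chr2:153649450-153687730, forward strand) had 199 and 264 counts in ΔleftPAL (8.15 and 9.80 CPM) and 189 and 304 in ΔIRIS (6.50 and 10.4 CPM). Both its LPS values lay above both resting ones, but the common log2 change of 0.47 ± 0.22 (SE) was not called (edgeR adjusted p = 0.11). Its log2 ratio was 0.27 (-0.0046 to 0.54) in ΔleftPAL and 0.67 (0.41 to 0.94) in ΔIRIS. The direction in ΔleftPAL was not kept in TPM summed over all transcripts, in which Dnmt3b stood at 4.49 and 3.33 before and after LPS, against 2.55 and 3.18 in ΔIRIS. It was kept over complete coding transcripts, at 2.39 and 2.73 TPM in ΔleftPAL and 1.87 and 2.69 TPM in ΔIRIS.

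For Dnmt3a, the complete coding transcripts fall into a longer form of 2724 coding bases that starts upstream and a shorter one of 2067 coding bases that starts within the gene, known as Dnmt3a1 and Dnmt3a2. The shorter form held 19.1% of the complete coding estimates at rest and 22.8% after LPS in ΔleftPAL cells, and 9.14% and 16.4% in ΔIRIS cells. Since the transcripts of the longer form are longer (8737 to 9685 bases, against 2328 to 5424 for the other form), estimated counts do not compare the forms per length. In TPM the longer and the shorter form stood at 5.78 and 5.72 at rest and at 2.61 and 3.19 after LPS in ΔleftPAL, and at 6.26 and 2.59 at rest and at 3.13 and 2.54 after LPS in ΔIRIS. By these estimates the longer form was the higher per length in both ΔIRIS libraries. In ΔleftPAL it was level at rest and the lower after LPS. All estimates of the shorter form were on its transcript of 2328 bases, with 0 on that of 5424 bases in each library. The same counts on the longer transcript would give a lower TPM, so no order of the forms per length is read from these values. With LPS the longer form went from 1008 to 588 estimated counts in ΔleftPAL and from 1309 to 794 in ΔIRIS. The shorter form went from 239 to 173 and from 132 to 156, but these counts are not scaled for depth. In the TPM above, the shorter form fell in ΔleftPAL too and was nearly level in ΔIRIS. For Dnmt3b a form of 2328 coding bases held 47.1% to 74.3% of the complete coding TPM, and the form of 2580 coding bases 25.7% to 40.8%.

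**Figure D2:**
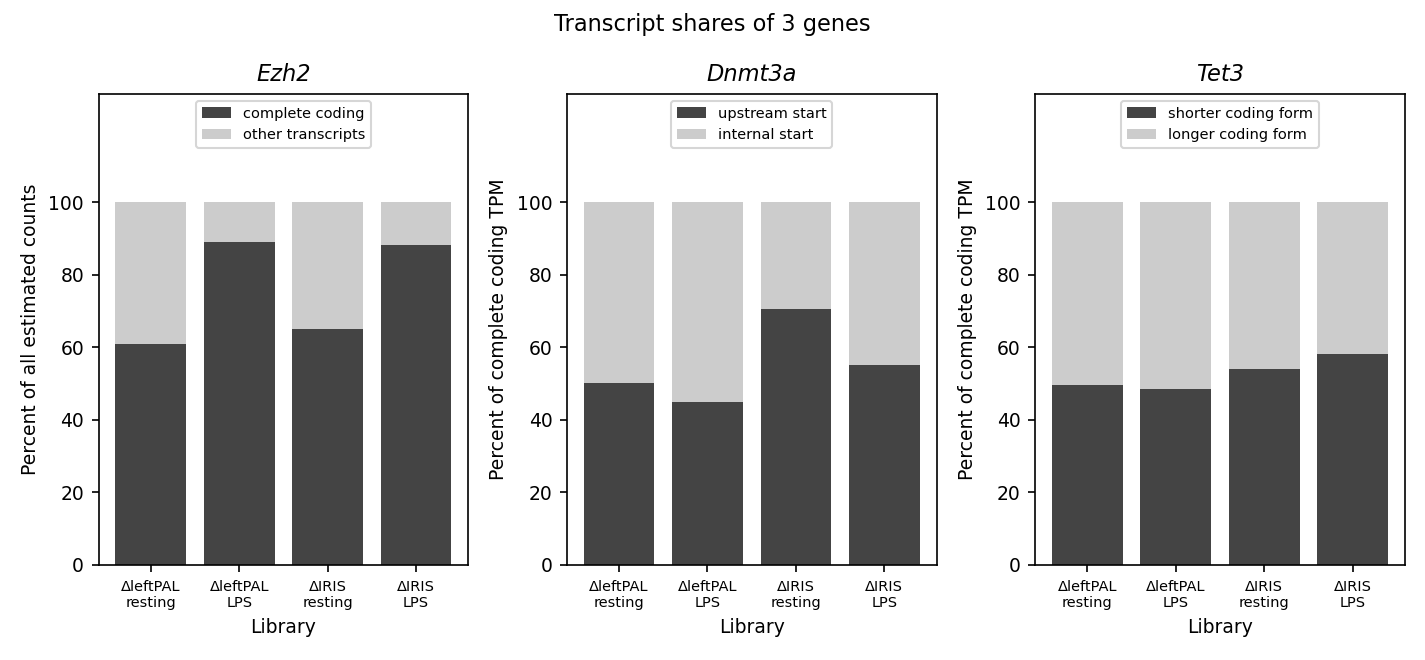
Transcript shares in each library (percent). Left, Ezh2, share of estimated counts of complete coding transcripts (dark) against all others (pale). Middle, Dnmt3a, share of complete coding TPM of the form with the upstream start (dark) against that with the internal start (pale). Right, Tet3, the same for the forms of 5004 (dark) and 5409 coding bases (pale). The coding share of Ezh2 was 61.0% and 64.9% at rest and 89.1% and 88.1% after LPS.

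The 3 TET genes fell, by different amounts. Tet3 (chr6:83362373-83459084, reverse strand) had 1699 and 1166 counts in ΔleftPAL (69.6 and 43.3 CPM) and 1956 and 1297 in ΔIRIS (67.3 and 44.2 CPM). It fell 1.56-fold in the common fit (log2 change -0.64 ± 0.12 (SE), edgeR adjusted p = 0.0061), with log2 ratios of -0.68 (-0.79 to -0.58) in ΔleftPAL and -0.60 (-0.71 to -0.50) in ΔIRIS. Tet2 (chr3:133463679-133544390, reverse strand) went from 1340 to 1150 counts in ΔleftPAL (54.9 to 42.7 CPM) and from 1653 to 1234 in ΔIRIS (56.9 to 42.1 CPM). Its fall of 1.32-fold was the smallest of the 5 (log2 change -0.40 ± 0.12 (SE), edgeR adjusted p = 0.032), with log2 ratios of -0.36 (-0.48 to -0.25) and -0.43 (-0.54 to -0.33). The call of Tet2 was lost with kallisto counts (adjusted p = 0.12) and when the ΔIRIS LPS, the ΔleftPAL LPS or the ΔIRIS resting library was left out (adjusted p = 0.16, 0.13 and 0.059), with the direction kept. Fits on 3 libraries also had to drop the genotype term, which by itself, with all 4 libraries, left Tet2 called (adjusted p = 0.027).

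Tet1 (chr10:62804570-62899118, reverse strand) had the fewest counts of the 9 genes. These were 107 and 42 counts in ΔleftPAL (4.38 and 1.56 CPM) and 140 and 53 in ΔIRIS (4.82 and 1.81 CPM), all above the limit of detection. Its fall of 2.73-fold was the largest of the 5 in the common fit (log2 change -1.45 ± 0.28 (SE), edgeR adjusted p = 0.0066). The low counts left wide intervals, with log2 ratios of -1.49 (-2.04 to -0.96) in ΔleftPAL and -1.41 (-1.90 to -0.95) in ΔIRIS, so that Tet1 and Ezh1 cannot be ranked. Tet2 is represented by a single transcript. Tet3 has 2 complete coding forms with separate starts, of which that of 5004 coding bases held 64.8% and 63.8% of the complete coding estimates in ΔleftPAL and 68.6% and 72.1% in ΔIRIS, before and after LPS. Its transcript is 10904 bases long against 5944 for that of the 5409-base form, and per length the forms were closer. In TPM the 5004-base and 5409-base forms stood at 5.25 and 5.30 at rest and at 2.71 and 2.87 after LPS in ΔleftPAL, and at 5.27 and 4.50 and at 3.09 and 2.23 in ΔIRIS.

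**Figure D3:**
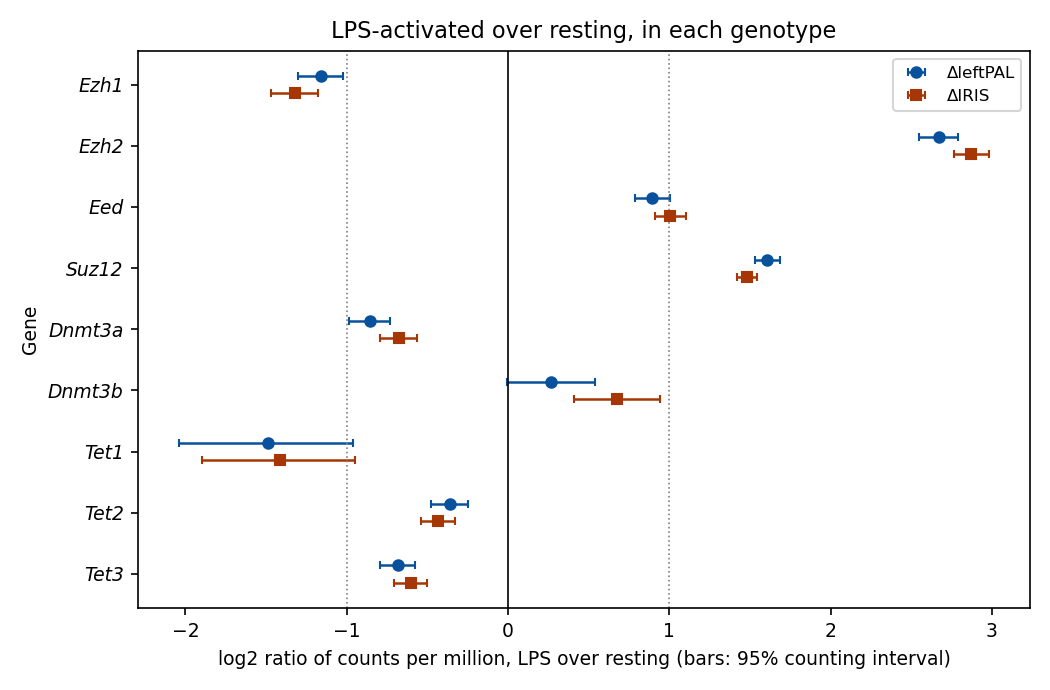
Log2 ratio of CPM, LPS over resting, of each gene in ΔleftPAL (circles) and ΔIRIS (squares). Bars are 95% counting intervals, and the dotted lines mark 2-fold changes. Ezh2 and Suz12 lie beyond 2-fold on the right and Ezh1 and Tet1 on the left in both genotypes.

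By size, 2 of the 9 genes (Ezh2 and Suz12) were at least 2-fold higher after LPS in both genotypes, as were 17.3% of all genes tested, and 2 (Ezh1 and Tet1) were at least 2-fold lower, as were 13.1%. The sizes depended on the scale. With kallisto estimated counts Eed was also over 2-fold higher in both genotypes (log2 ratio 1.06 in ΔleftPAL and 1.18 in ΔIRIS). In TPM plus 0.5, the log2 ratio was 1.66 and 1.92 for Ezh2 and 0.97 and 1.08 for Suz12 in ΔleftPAL and ΔIRIS, so that Suz12 was under 2-fold in ΔleftPAL, and with 5 added to CPM that of the scarce Tet1 shrank to -0.52 and -0.53. In TPM summed over all transcripts, the order at rest was Suz12 (35.0 to 36.5) and Eed (34.8 to 35.9), which overlapped, then Ezh2 (27.7 to 29.1), Ezh1 (22.9 to 26.0) and Dnmt3a (18.8 to 24.4), of which Ezh1 and Dnmt3a overlapped, then Tet3 (10.0 to 12.1), Tet2 (7.69 to 7.87), Dnmt3b (2.55 to 4.49) and Tet1 (1.90 to 2.28), where the ranges run over the 2 genotypes. After LPS it was Ezh2 (92.7 to 106), Suz12 (69.1 to 77.8), Eed (54.5 to 56.6), Dnmt3a (10.6 to 11.8), Ezh1 (7.85 to 10.0), Tet3 (5.33 to 5.68), Tet2 (4.85 to 5.05), Dnmt3b (3.18 to 3.33) and Tet1 (0.323 to 0.610), with no neighbours overlapping. Over complete coding transcripts the order at rest differed, with Ezh2 at 9.76 and 9.86 TPM below Ezh1 at 16.5 and 13.9 TPM and close to Dnmt3a at 11.5 and 8.85 TPM and Tet3 at 10.6 and 9.76 TPM. Ezh2 at 67.2 and 75.0 TPM again headed the order of TPM levels after LPS, followed by Suz12 at 59.5 and 66.0 TPM. After LPS Ezh1 at 6.38 and 4.77 TPM, Dnmt3a at 5.79 and 5.68 TPM and Tet3 at 5.57 and 5.33 TPM had no clear order over complete coding transcripts, since the range of Ezh1 overlapped those of Dnmt3a, Tet3 and Tet2 (5.05 and 4.85 TPM). Gene counts per kilobase of gene gave another order, with Ezh2 below Suz12 and Eed after LPS in both genotypes. There Ezh2 had 4422 and 5625 counts over 6197 bases, Suz12 6366 and 7964 over 4945 and Eed 2185 and 2659 over 2218. Dnmt3a lay below Ezh1 on that measure. Its ratio to Dnmt3b was 0.966 and 1.02 after LPS, and that of Tet2 to Tet3 was 1.29 and 1.24.

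The other subunits of PRC2 and of its partner complex were read from lists of genes. All 7 accessory PRC2 genes were called, 5 higher and 2 lower, with a median log2 change of 0.86, where 36.4% of all genes tested rose and 27.9% fell. Phf19 (log2 change 2.59), Rbbp7 (1.83), Rbbp4 (0.99), Aebp2 (0.86) and Mtf2 (0.80) rose, while Phf1 (-2.76) and Jarid2 (-1.39) fell. Phf1, Mtf2 and Phf19 encode the Polycomb-like proteins, which are alternative subunits, and Rbbp4 and Rbbp7 encode histone chaperones shared with other complexes. Phf1 went from 36.1 and 31.9 CPM to 5.64 and 4.44 CPM, and Phf19 from 9.70 and 6.60 CPM to 42.9 and 54.5 CPM in ΔleftPAL and ΔIRIS. Phf1 thus moved with Ezh1 and Phf19 with Ezh2 in both genotypes.

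PRC1 is the complex that places ubiquitin on histone H2A. Of its 19 genes tested, out of 20 listed, 6 rose, 5 fell and 8 were not called, beside 36.4% and 27.9% of all genes that rose and fell, and the median log2 change was -0.13. Cbx2 (log2 change 1.49), L3mbtl2 (1.16), Pcgf5 (1.10), Pcgf6 (0.85) and Yaf2 (0.76) rose, whereas Cbx7 (-1.77), Phc1 (-1.46), Phc3 (-0.86), Ring1 (-0.77) and Rybp (-0.65) fell. CBX2 and CBX7 are alternative readers of methylated lysine 27 of H3, and RYBP and YAF2 are alternative subunits too. The catalytic partner Rnf2 was not called, with a log2 change of -0.13.

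Among 5 genes that act against these marks, 2 rose, 2 fell and 1 was not called, with a median log2 change of 0.02, beside 36.4% and 27.9% of all genes that rose and fell. Kdm6b, a demethylase of lysine 27 of H3, fell 14.3-fold (log2 change -3.84 ± 0.17 (SE), edgeR adjusted p = 0.00016), from 41.4 and 48.7 CPM at rest to 3.16 and 3.10 CPM after LPS, and the related Kdm6a fell with a log2 change of -0.43. Asxl1 (0.74) and Bap1 (0.41), which form an H2A deubiquitinase, rose.

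Maintenance methylation was followed in 5 genes. Of these, 4 were tested and 3 rose, where 36.4% of all genes did, with a median log2 change of 2.83. Dnmt1 rose 4.23-fold (log2 change 2.08 ± 0.15 (SE), edgeR adjusted p = 0.00033), from 110 and 86.8 CPM to 409 and 418 CPM, Uhrf1, which brings DNMT1 to hemimethylated DNA, had a log2 change of 3.58, and the remodeller Hells one of 3.73. Uhrf2 was not called (-0.15), and Dnmt3l, a cofactor of the de novo enzymes, had no more than 1 count in any library. The 8 proliferation genes all rose, with log2 changes of 1.74 (Pcna) to 4.01 (Ccnb1) and a median of 3.31, beside 2.77 for Ezh2 and 1.54 for Suz12. The part of cell division in the rise of Ezh2, Suz12 and Eed was not tested.

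Of 6 readers of methylated CpG sites, Mbd3 rose (log2 change 1.34), Zbtb4 (-1.54) fell and 4 were not called, with a median of -0.03. Of 9 partners of demethylation, 4 rose, 2 fell and 3 were not called, with a median of 0.42. Both lists are short, and over all genes 36.4% rose and 27.9% fell, with a median of 0.12. Idh3a (2.00), the glycosylase gene Tdg (1.15), Idh2 (1.09) and Gadd45b (0.44) rose, and Gadd45g (-2.51) and Gadd45a (-1.94) fell. TDG removes the bases that TET enzymes oxidise, and it thus moved opposite to the 3 TET genes.

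**Figure D4:**
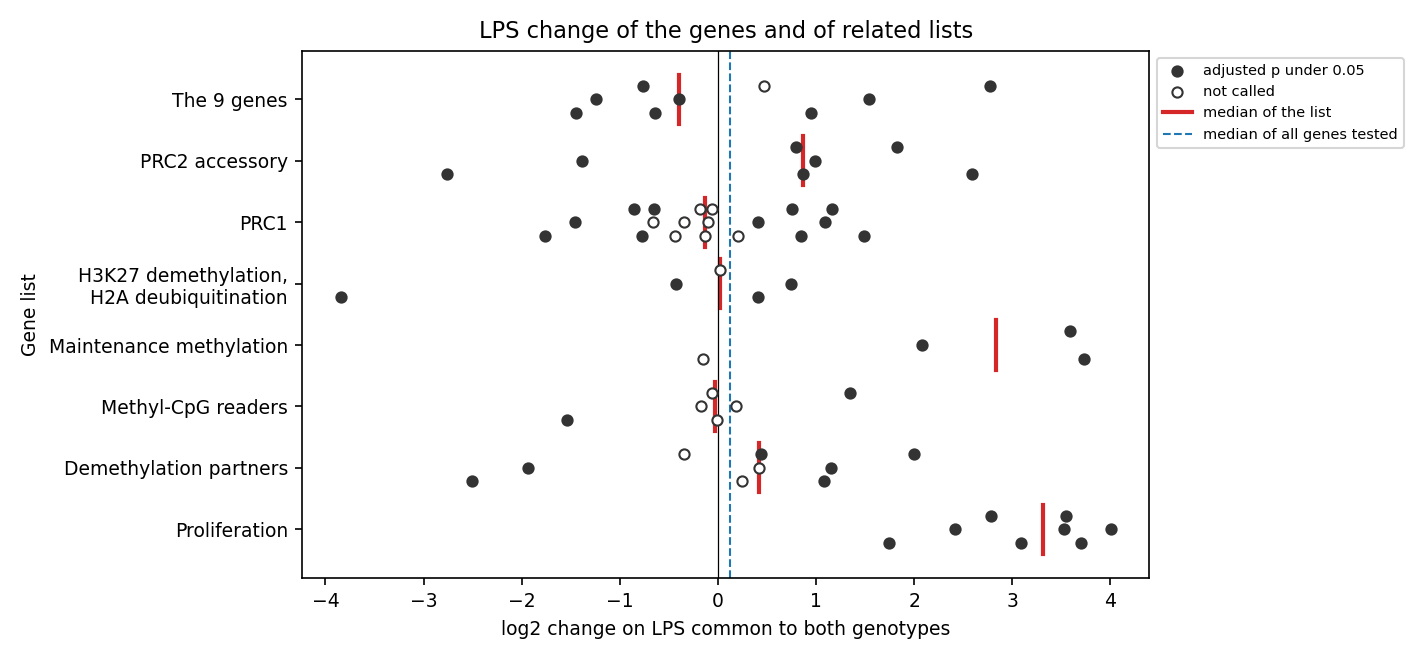
Log2 change on LPS common to both genotypes, for the 9 genes and 7 related lists. Filled points passed the edgeR test at an adjusted p under 0.05, open points did not, red bars are list medians and the dashed line is the median of all genes tested (0.12). The median was 2.83 for maintenance methylation and 3.31 for proliferation.

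Between the genotypes the 9 genes differed little. In the common fit 0 of 9 were called (edgeR, adjusted p of 0.71 to 0.99) and 0 had an unadjusted p under 0.05, and DESeq2 also called 0. Over all genes edgeR called 1 (0.00886%), with 792 at an unadjusted p under 0.05. No gene of the 9 was 2-fold apart between genotypes in either condition, against 2.85% of all genes at rest and 1.98% after LPS. Ezh1 and Suz12 had intervals without 0 in both conditions and kept their direction. The log2 ratio of ΔIRIS to ΔleftPAL was -0.21 (-0.32 to -0.10) at rest and -0.37 (-0.53 to -0.20) after LPS for Ezh1, and 0.33 (0.24 to 0.41) and 0.20 (0.15 to 0.25) for Suz12. The common log2 differences of -0.29 ± 0.13 (SE) for Ezh1 and 0.26 ± 0.12 (SE) for Suz12 were not called (edgeR adjusted p = 0.71 for each). After LPS the ratio was 0.23 (0.17 to 0.28) for Ezh2, 0.16 (0.08 to 0.24) for Eed and 0.16 (0.03 to 0.30) for Dnmt3a, while at rest the intervals of these 3 genes held 0. In TPM plus 0.5 the ratios after LPS turned to -0.05 for Eed and -0.15 for Dnmt3a, and that of Suz12 at rest was 0.06, so that these differences depended on the measure. For Dnmt3b the ratio was -0.33 (-0.62 to -0.03) at rest and 0.08 (-0.16 to 0.33) after LPS. In TPM plus 0.5 the resting ratio was more negative for Dnmt3b (-0.71), Dnmt3a (-0.37) and Tet3 (-0.26). For Tet1, Tet2 and Tet3 the intervals held 0 in both conditions. Over both conditions they ran from -0.14 to 0.16 for Tet2 and from -0.14 to 0.15 for Tet3. For Tet1 they ran from -0.24 to 0.51 at rest and from -0.40 to 0.83 after LPS, so that at its depth differences of that size in either direction were not excluded.

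**Figure D5:**
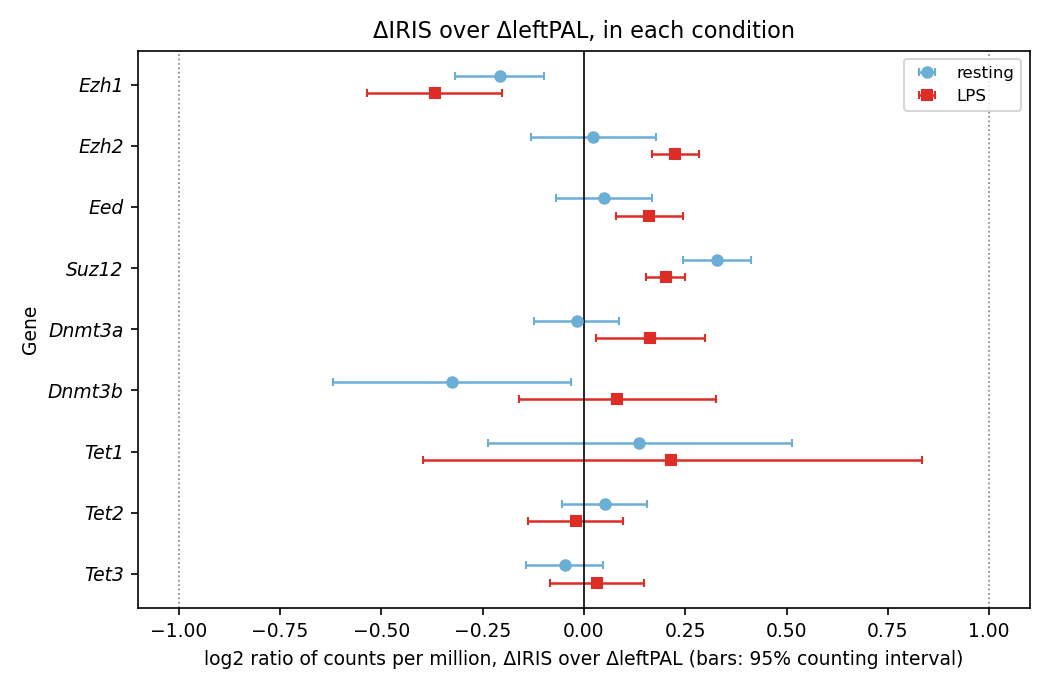
Log2 ratio of CPM, ΔIRIS over ΔleftPAL, of each gene at rest (circles) and after LPS (squares), with 95% counting intervals. Dotted lines mark 2-fold differences, which none of the 9 genes reached.

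The LPS response itself was compared between the genotypes as the difference of the log2 ratios, ΔIRIS minus ΔleftPAL. It was 0.20 (95% counting interval 0.04 to 0.36) for Ezh2, -0.13 (-0.22 to -0.03) for Suz12, 0.18 (0.01 to 0.35) for Dnmt3a and 0.41 (0.03 to 0.78) for Dnmt3b. For the other 5 genes the interval held 0. The direction for Suz12 was not kept in TPM plus 0.5, where its log2 ratio was 0.97 in ΔleftPAL and 1.08 in ΔIRIS. With 1 library per group these differences have no replicate check, and they were smaller than the LPS changes of Ezh2, Suz12 and Dnmt3a themselves, but for Dnmt3b the difference exceeded its log2 ratio of 0.27 in ΔleftPAL.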

How the data were processed

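RNA depleted of ribosomal RNA was sequenced as stranded paired reads of 150 nt. The authors mapped reads to mm10 with STAR 2.4.0a and deposited raw counts of fragments for each gene name, made with featureCounts (Subread 1.4.6-p1, Ensembl release 77). Counting used strand, and gene counts of the 9 genes were 0.795 to 1.06 times the kallisto sums. Eed, Tet1 and Tet3 share strand and span with small annotated genes, so reads there may be assigned to either. The authors also deposited estimated counts and TPM per transcript from kallisto 0.42.3, whose index is not given in the sources used here. 1 row of the count table pools genes without a name (0.00876% to 0.0264% of counts) and was left out. Genes averaging 50 counts or more per library were fitted with edgeR 4.0.16 (R 4.3.3, TMM, quasi-likelihood test, terms for genotype and condition), which left 1 residual degree of freedom. CPM used TMM library sizes. A gene was called at a Benjamini-Hochberg adjusted p under 0.05. Each SE was derived from this test, as the absolute log2 change over the square root of its F statistic. It is not an error from replicates. Single pairs of libraries were compared by the log2 ratio of CPM with a 95% Clopper-Pearson interval (scipy 1.17.1), and the interval of a difference of such ratios is a normal one from the counts. For the share of all genes 2-fold apart, 0.5 was added to each CPM. Per-length levels were TPM summed per gene, and transcript types came from GENCODE M21. The fits and intervals were tested on simulated data, but no outcome of those runs is given here. The animals behind the pools are not stated to be independent between conditions, so p-values measure only the spread between these libraries. The 9 genes and all lists were chosen with earlier results of these data known. All 9 genes were named, and of each list at most the 5 largest changes called in each direction. 1 gene of the lists is not reported here. Figures were drawn with matplotlib 3.10.9.

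The fit was repeated with DESeq2 1.42.0 (size factors and Wald test), total counts, TMM without immunoglobulin genes, kallisto estimated counts rounded to whole numbers, other filters, other priors, no genotype term and each library left out (on condition alone).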

Additional observations from a re-analysis of the deposited data

How the results depend on the processing

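With 1 library per group, no result has a replicate check, and the wide intervals of Tet1 and Dnmt3b reflect their depth of 42 to 304 counts. Under 12 alternatives of the common LPS fit, the direction of all 9 genes was kept. Ezh1, Ezh2, Eed, Suz12, Dnmt3a, Tet1 and Tet3 kept their calls under all 12. Tet2 lost its call under 4 of them (adjusted p up to 0.16), and Dnmt3b gained one with kallisto estimated counts (log2 change 0.67, adjusted p = 0.041). With each library left out in turn, and with it the genotype term, 3 of the genes were called higher each time and 4 to 5 lower, and 3012 to 3831 of all genes were called higher and 2296 to 2906 lower, where a condition left with a lone library is assumed to vary like the other. DESeq2 size factors moved the median log2 change of all genes from 0.12 to -0.02, and the LPS changes of the 9 genes with it. The genotype difference called 0 of the 9 genes under all 7 alternatives. Over all genes it called 1 higher and 17 lower with kallisto counts, 9 and 25 with the DESeq2 Wald test and 13 and 32 without a filter, against 1 in all as reported; which genes these were was not compared. With 5 instead of 0.5 added to CPM, 128 genes were 2-fold apart between genotypes at rest and 83 after LPS. The ratio of Ezh2 to Ezh1 per kilobase of gene was 0.569 and 0.668 at rest and 8.11 and 12.2 after LPS, and over complete coding transcripts 0.592, 0.710, 10.5 and 15.7. In TPM plus 0.5, the log2 ratio of Dnmt3b in ΔleftPAL turned from 0.27 to -0.38, the difference of the LPS ratios of Suz12 between genotypes changed sign, and genotype ratios changed sign after LPS for Dnmt3a (0.16 to -0.15) and Eed (0.16 to -0.05), whose counting intervals had excluded 0, and, with intervals that held 0, for Tet1 (0.21 to -0.43), Dnmt3b (0.08 to -0.06) and Tet3 (0.03 to -0.09) after LPS and for Ezh2 (0.02 to -0.07), Eed (0.05 to -0.05) and Tet1 (0.14 to -0.21) at rest. The labels carry no replicate numbers, so genotype was the only block; the fit without the genotype term called the same number of the 9 genes in each direction.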

Other observations

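Among 11285 other genes, the 3 whose pattern over the 4 libraries lay nearest to that of Ezh2 (Euclidean distance of centred log2 CPM plus 0.5) were the histone gene Hist1h2bb (distance 0.037), Dbi (0.041), which encodes an acyl-CoA binding protein, and the kinetochore gene Cenph (0.079). Their common log2 changes were 2.76, 2.84 and 3.03, beside 2.77 for Ezh2. Hist1h2bb belongs to a family of near-identical genes, so its counts may hold reads of other copies. The nearest to Ezh1 were Prickle3 (0.045), Tmem8 (0.049) and Zer1 (0.053), with common log2 changes of -1.40, -1.30 and -1.29. With 4 points and a single dominant contrast, many genes lie close to either pattern.

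A pair of further words was searched in the same start-site windows. TTTGAA, a word found in cell-cycle gene promoters, was found in Eed, Suz12 and Dnmt3b and in 17.9% of all windows. GGGCGG, the word of Sp factors, was found in Suz12, Dnmt3a, Dnmt3b, Tet1, Tet2 and Tet3 and in 35.7% of all windows. The window of Tet1 is not at the start of its main coding form, and that of Tet3 covers only its form of 5004 coding bases.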
